A study of Mus musculus with 27 samples.

Results

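The data describe the transcripts of the transcription factor p53 (*Trp53*) and of 9 genes that it is known to regulate (*Mdm2*, *Cdkn1a*, *Ccng1*, *Bax*, *Bbc3*, *Aen*, *Phlda3*, *Trp53inp1* and *Sesn2*). These 10 genes were chosen with earlier results of these data known, so their shares set against all genes are descriptions and not tests. They are textbook members of the pathway. They are 10 of the 22258 gene symbols in the tables, and all 10 had a value in each of the 27 libraries and passed the filter on low values in every comparison. In the siRNA and inhibitor libraries each gene was read by its symbol. In the total RNA libraries, whose rows carry no symbols, it was read from the row that covers its locus. The same match by position returned the right symbol for 10 of 10 members in all libraries where the symbol is known. The positions came from those same libraries, so this does not test the total RNA rows, some of which cover a second gene.

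All 27 libraries came from *Setdb1* cKO iMEFs, a line of immortalized mouse embryonic fibroblasts whose gene for the H3K9 methyltransferase Setdb1 is deleted by adding 4-hydroxytamoxifen (4OHT). The study used 1 clone, so no group speaks for a second line, and how the cells were immortalized is not given in the sources used here. The total RNA experiment (rRNA-depleted RNA, 3 libraries per group) held untreated cells, cells given 4OHT for 4 days and harvested on day 5, and long-term KO cells taken more than 2 weeks after 4OHT. The siRNA experiment (2 libraries per group, day 6) held cells transfected with control siRNA (siCtrl) or siRNA against the maintenance DNA methyltransferase *Dnmt1* (siDnmt1), each without 4OHT or with 4OHT added on day 0. The inhibitor experiment (2 libraries per group) held untreated cells and cells harvested on day 6 after 4OHT. It also held cells given 1 µM of the MEK inhibitor PD0325901 for 24 h, and cells given 4OHT and PD0325901. The last group was given 150 nM of the histone deacetylase inhibitor TSA for 24 h. The labels do not give the days on 4OHT here. The paper's methods describe 4 days with the drug and then 2 days without it. The sample labels also spell the MEK inhibitor PD0325091.

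p53 is a transcription factor that is held at a low level by the ubiquitin ligase Mdm2, itself a p53 target, so that activation of p53 raises its own inhibitor. p53 is regulated mostly through the stability and modification of its protein, which RNA-seq does not measure, and its activity is commonly read from its targets. Active p53 binds paired decamer half-sites in DNA and induces genes of cell-cycle arrest, apoptosis, DNA repair and metabolism. In fibroblasts it is known for arrest and senescence, and the culture of mouse embryonic fibroblasts selects for cells in which this response or its upstream activator Arf is weakened.

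A p53 consensus element was searched within 5 kb on each side of 1 start site per gene in mm9, the outermost one annotated. Distances to other start sites of a gene were not measured. The element was 2 half-sites of 10 bases with no bases between them and at most 2 mismatches over the 20 positions. This palindromic pattern reads alike on both strands. Of 22374 windows of protein-coding genes of that length, 28.8% held at least 1 match, so a match by itself is common. Of the members, 5 of 10 held one (*Mdm2*, *Cdkn1a*, *Ccng1*, *Bax* and *Bbc3*), and the windows of *Trp53*, *Aen*, *Phlda3*, *Trp53inp1* and *Sesn2* did not hold these letters. Of the 9 matches, the *Bax* match was in an exon and 3 were in introns of *Cdkn1a* and *Ccng1*. The match nearest to the start is shown for the 4 genes whose nearest match lies upstream, so that the shared pattern can be seen beside the values, on the gene's strand with the element in capitals and distances from its centre.
Cdkn1a, chr17:29227853-29227912, 42 bp upstream of the start, 1 mismatch: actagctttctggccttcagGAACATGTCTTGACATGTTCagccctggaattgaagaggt
Ccng1, chr11:40568944-40569003, 161 bp upstream, 1 mismatch: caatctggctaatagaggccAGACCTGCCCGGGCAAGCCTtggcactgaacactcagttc
Mdm2, chr10:117148706-117148765, 922 bp upstream, 1 mismatch: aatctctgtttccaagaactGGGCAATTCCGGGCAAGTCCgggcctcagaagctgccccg
Bbc3, chr7:16894022-16894081, 914 bp upstream, 2 mismatches: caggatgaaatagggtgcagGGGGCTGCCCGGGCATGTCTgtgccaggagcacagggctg

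Values are FPKM, fragments scaled to transcript length and to the library's mapped total, so levels are per length. The files give no read counts, so the depth is unknown, and the precision of a single value is given by its Cufflinks interval, whose half-width was 2.64 to 37.3% of the value over the members and libraries (median 7.37%). *Setdb1* itself did not track the labels at the gene level. It was at 5.16 to 5.95 FPKM in untreated total RNA libraries, at 4.16, 4.2 and 6.52 FPKM on day 5 and at 6.96 to 7.32 FPKM in long-term KO libraries. In the siRNA experiment it was at 6.48 to 7.4 FPKM in siCtrl, 5.54 to 6.08 in siDnmt1, 5 and 7.58 in 4OHT + siCtrl, and 5.4 and 6.94 FPKM in 4OHT + siDnmt1 libraries. In the inhibitor experiment it was at 8.76 and 10.1 FPKM in untreated, 9 to 9.56 in TSA, 5.34 to 5.56 in PD0325901 libraries, at 0 and 5.3 FPKM on day 6 and listed at 0 in both 4OHT + PD0325901 libraries. Groups are therefore named throughout as they are labelled. *Dnmt1* followed its siRNA, at 11.4 FPKM in siDnmt1 against 77 FPKM in siCtrl libraries. A list of 10 interferon-response genes known to rise after 4OHT in these cells summed to 395 to 449 FPKM on day 5 against 13.9 to 28.5 FPKM untreated and 68.4 to 71.6 FPKM in long-term KO libraries, and to 1090 to 2610 FPKM in the 4OHT libraries of the inhibitor experiment against 35.6 to 36.6 FPKM untreated. The exception was the library labelled 4OHT + siCtrl replicate 2, at 287 FPKM against 2410 FPKM in replicate 1 and 196 to 257 FPKM in siCtrl. Of the genes compared, 10.2% were at least 2-fold apart between these 2 libraries, against 1.77 to 5.63% between replicates of the other groups, so the member counts that use them are given with and without replicate 2. Of 10 fibroblast markers, 8 or 9 were at 1 FPKM or more in every library of each group, the others having no value in a library. The 5 endothelial markers summed to at most 2.27 FPKM in any library. Epithelial markers in total RNA summed to 1.22 to 1.56 FPKM untreated, 4.19 to 5.27 FPKM on day 5 and 0.377 to 0.62 FPKM in long-term KO libraries, and their part in the member values was not tested. Of the 8 haematopoietic markers, 7 summed to at most 0.177 FPKM in any total RNA library. The other, *Cd68*, was at 2.73 and 3.9 FPKM in the 2 total RNA libraries where its row covers it alone, and at 364 to 775 FPKM in the 7 where the row covers a neighbouring gene too.

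The first question was how p53 and its targets stood early after 4OHT and in long-term KO cells. No experiment held 4OHT-treated cells that lack the deletable *Setdb1* gene. An effect of 4OHT itself and one of the deletion therefore cannot be told apart in any 4OHT contrast. On day 5 after 4OHT, 5 of the 10 genes had risen (*Mdm2*, *Cdkn1a*, *Ccng1*, *Phlda3* and *Trp53inp1*), *Sesn2* had fallen, and 4 were not called. Of all 10692 genes tested, 16% were called higher and 15.2% lower at an adjusted p under 0.05 (limma, Benjamini-Hochberg over all genes), so the members called higher stood above the background share and the members called lower did not. Of these calls 51.4% were higher (42.3% with median-ratio scaling). In long-term KO cells 4 members were higher and 4 lower than in untreated cells, where 34.3% of all genes were called higher and 26.6% lower, and these counts are near that background. Nothing in the labels says that the replicates were separate cultures, so p-values measure the spread between libraries, which may be technical. In bulk RNA fewer cells with a transcript and less transcript per cell cannot be told apart.

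**Figure D1:**
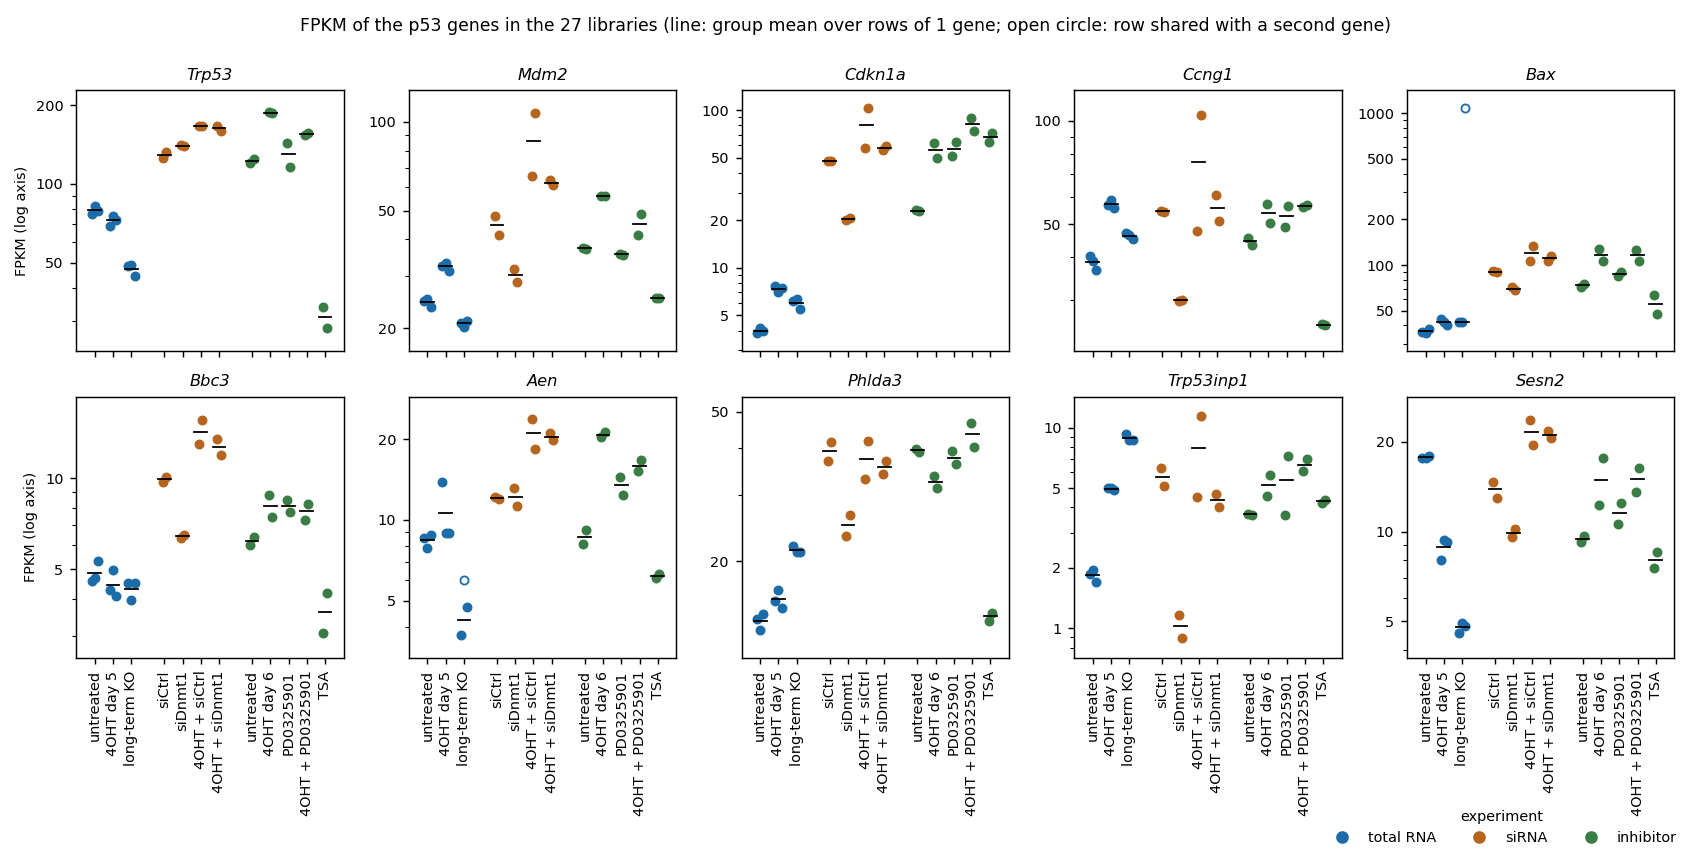
FPKM (log axis, a different range in each panel) of the 10 genes in each library by group; points are libraries, lines are group means over rows of 1 gene, open circles are rows shared with a second gene, and colours mark the 3 experiments, whose levels are not compared because they were prepared and normalized apart. *Trp53* sits at 28 and 33.8 FPKM with TSA against 120 and 124 FPKM untreated, *Sesn2* falls stepwise in the total RNA groups, and the *Bax* panel has its open circle (shared with *Ftl1*) at 1080 FPKM.

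*Trp53* (chr11:69393861-69405375, mm9), the gene of p53 itself, was at 76.6, 82.1 and 78.8 FPKM in untreated total RNA libraries, at 69.1, 75.6 and 73.0 FPKM on day 5 and at 48.6, 49 and 44.5 FPKM in long-term KO libraries. The day 5 libraries all lay below the untreated ones by a small margin, and the long-term KO libraries lay below both other groups. The log2 fold change was -0.13 ± 0.05 (SE) on day 5, which was not called (limma, adjusted p = 0.119), and -0.74 ± 0.05 in long-term KO cells (limma, adjusted p = 1.45e-05). Between long-term KO and day 5 cells it was -0.62 ± 0.05 (limma, adjusted p = 4.15e-05).

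*Mdm2* (chr10:117125931-117147814), which encodes the ubiquitin ligase that degrades p53, was at 24.7, 25.2 and 23.7 FPKM in untreated libraries, 32.6, 33.4 and 31.3 FPKM on day 5 and 20.9, 20.2 and 21.2 FPKM in long-term KO libraries. It was thus high on day 5 and lowest in long-term KO cells, with no overlap between the 3 groups. It rose 1.32-fold by day 5 (log2 fold change 0.40 ± 0.04, limma, adjusted p = 0.000284) and was 0.845 times the untreated level in long-term KO cells (-0.24 ± 0.04, limma, adjusted p = 0.00107).

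*Cdkn1a* (chr17:29227924-29237667), which encodes the cyclin-dependent kinase inhibitor p21 that arrests the cell cycle, was at 3.88, 4.18 and 3.97 FPKM in untreated libraries, 7.71, 7.04 and 7.41 FPKM on day 5 and 6.15, 6.33 and 5.51 FPKM in long-term KO libraries. All day 5 libraries were above all long-term KO libraries, and these were above all untreated libraries. The rise was 1.84-fold on day 5 (log2 fold change 0.86 ± 0.06, limma, adjusted p = 7.57e-05) and 1.49-fold in long-term KO cells (0.57 ± 0.06, limma, adjusted p = 0.000162). *Ccng1* (chr11:40562054-40568788), which encodes cyclin G1, a partner of the phosphatase PP2A that acts on Mdm2, had the same order, with means of 38.8 ± 1.89 FPKM untreated, 57.1 ± 1.46 FPKM on day 5 and 46.3 ± 0.774 FPKM in long-term KO libraries (SD, n = 3 each). It rose 1.47-fold by day 5 (log2 fold change 0.56 ± 0.04, limma, adjusted p = 8.06e-05).

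The apoptosis genes *Bax* and *Bbc3* moved little or could not be read from every library. *Bax* (chr7:52717065-52722268), which encodes the protein that permeabilizes the outer mitochondrial membrane, was at 36.5, 35.7 and 38.1 FPKM in untreated, 44.3, 42 and 40.6 FPKM in day 5 and 42.2 and 42.1 FPKM in long-term KO replicates 1 and 2. In long-term KO replicate 3 the row that covers *Bax* also covers the neighbouring ferritin light chain gene *Ftl1* and was listed at 1080 FPKM, while *Ftl1* had its own row at 959 to 1110 FPKM in the other total RNA libraries. With that row in the fit *Bax* was not called on day 5 (log2 fold change 0.20 ± 1.16, limma, adjusted p = 0.924). With rows that cover 1 gene, which drops the *Bax* value of that library, it was higher on day 5 (0.20, limma, adjusted p = 0.0104) and in long-term KO cells (0.20, limma, adjusted p = 0.00868). *Bbc3* (chr7:16894932-16903683), which encodes the BH3-only protein PUMA, was at 4.85 ± 0.41 FPKM untreated, 4.45 ± 0.484 FPKM on day 5 and 4.32 ± 0.31 FPKM in long-term KO libraries (SD, n = 3 each) and was called in neither comparison with untreated cells.

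*Aen* (chr7:86040813-86053719), which encodes an apoptosis-enhancing nuclease, was at 8.59, 7.88 and 8.83 FPKM in untreated libraries, 13.9, 8.96 and 8.94 FPKM on day 5 and 3.74, 5.98 and 4.74 FPKM in long-term KO libraries. The day 5 libraries were above the untreated ones, 1 of them by far and 2 of them barely, and the long-term KO libraries were below. Its row differed between libraries, ending earlier in day 5 replicate 1 and in long-term KO replicates 1 and 3, and covering the interferon-induced exonuclease gene *Isg20* as well in long-term KO replicate 2. Whether row extent contributed to the values was not tested. The change on day 5 was not called (log2 fold change 0.30 ± 0.22, limma, adjusted p = 0.354). *Aen* fell in long-term KO cells (-0.82 ± 0.22, limma, adjusted p = 0.0132), and with rows that cover 1 gene the value was -0.98 (limma, adjusted p = 0.00511).

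Of the 3 remaining members, *Trp53inp1* and *Phlda3* climbed from untreated to day 5 to long-term KO cells, and *Sesn2* went down in the same order. *Trp53inp1* (chr4:11083588-11101524), which encodes a p53-induced nuclear protein with roles in autophagy and stress, was at 1.86, 1.96 and 1.69 FPKM untreated, 4.98, 4.98 and 4.9 FPKM on day 5 and 9.29, 8.65 and 8.71 FPKM in long-term KO libraries. Each group lay wholly above the one before, and the rise was 2.7-fold on day 5 (log2 fold change 1.39 ± 0.06, limma, adjusted p = 4.32e-06) and 4.84-fold in long-term KO cells (2.22 ± 0.06, limma, adjusted p = 1.28e-07). *Phlda3* (chr1:137662662-137665711), which encodes a pleckstrin-homology protein that restrains Akt, was at 13.9 ± 0.673, 15.8 ± 0.912 and 21.4 ± 0.401 FPKM in the 3 groups (SD, n = 3 each). Its day 5 rise of 1.14-fold was just past the threshold (limma, adjusted p = 0.0311), and it was 1.54-fold higher in long-term KO cells (limma, adjusted p = 3.47e-05).

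*Sesn2* (chr4:132048069-132066371), which encodes a sestrin that restrains mTORC1, was at 17.6, 17.7 and 17.9 FPKM untreated, 8.04, 9.39 and 9.25 FPKM on day 5 and 4.55, 4.94 and 4.83 FPKM in long-term KO libraries. It was 0.501 times the untreated level on day 5 (log2 fold change -0.99 ± 0.06, limma, adjusted p = 3.79e-05) and 0.269 times in long-term KO cells (-1.87 ± 0.06, limma, adjusted p = 3.63e-07). *Sesn2* is also a target of Atf4, the transcription factor of the amino acid and unfolded protein responses. Of 8 tested genes on a list of 9 Atf4 stress genes, 7 were lower and 0 higher on day 5 with a median log2 fold change of -0.95, and 8 of 8 were lower in long-term KO cells with a median of -1.82, against medians of 0.00 and 0.07 over all genes. In these 2 comparisons 15.2% and 26.6% of all genes were called lower. The part of Atf4 in the *Sesn2* values was not tested.

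Long-term KO cells were also set against day 5 cells. There 2 members were higher (*Phlda3* 1.35-fold and *Trp53inp1* 1.79-fold), 6 were lower (*Trp53*, *Mdm2*, *Cdkn1a*, *Ccng1*, *Aen* and *Sesn2*) and 2 were not called, where 32.3% of all genes were called higher and 27.3% lower. The members called lower stood above that background. *Mdm2* was 0.64 times (log2 fold change -0.64 ± 0.04, limma, adjusted p = 6.44e-06), *Cdkn1a* 0.812 times (-0.30 ± 0.06, limma, adjusted p = 0.00487) and *Aen* 0.454 times the day 5 level (-1.12 ± 0.22, limma, adjusted p = 0.00312). Both comparisons with untreated cells share the untreated libraries, and this one shares libraries with both.

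**Figure D2:**
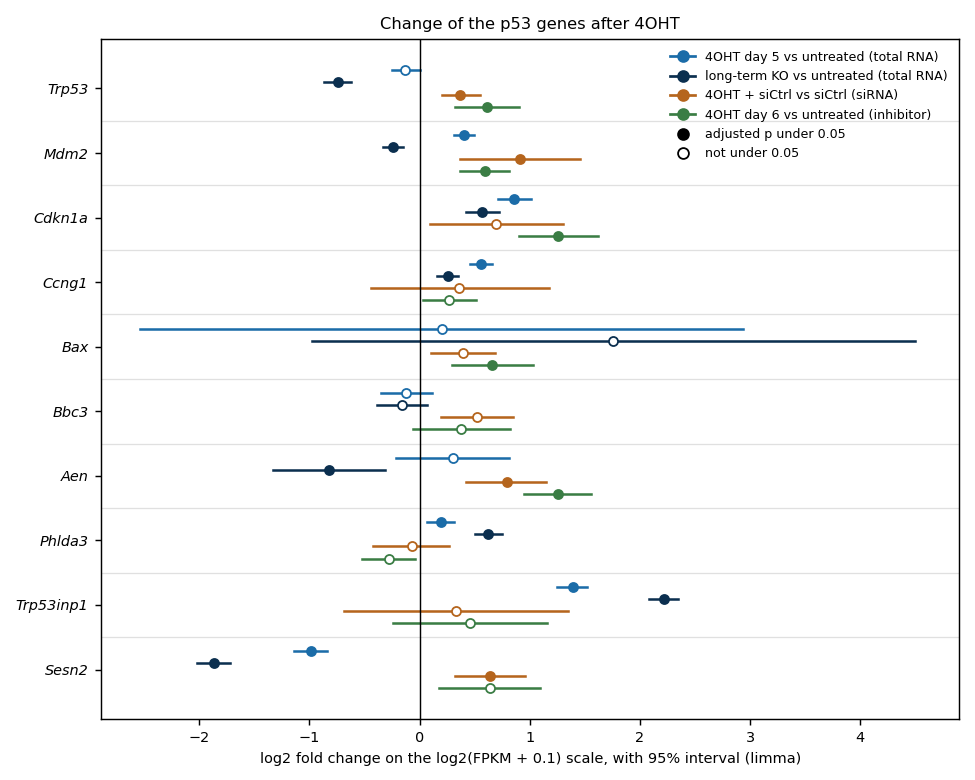
Log2 fold change (x axis, 95% interval as bars) of the 10 genes after 4OHT in the 3 experiments; filled circles have an adjusted p under 0.05. *Mdm2* is filled and above 0 in all 3 short-term contrasts, *Sesn2* is at -0.99 on day 5 of the total RNA experiment and at 0.64 in both other experiments, and the wide *Bax* bars of the total RNA experiment come with the shared row of long-term KO replicate 3.

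Of 52 other p53 pathway genes on 5 lists (regulators, and targets of arrest, apoptosis, DNA repair, and stress and metabolism), 45 were tested in total RNA. The lists were chosen with earlier results of these data known, so their shares are descriptions and not tests. On day 5, 18 of the 45 were higher and 4 lower, with a median log2 fold change of 0.13 against 0.00 over all genes. These are 40% and 8.89% of the list, against 16% and 15.2% of all genes. Of 10 tested apoptosis targets 6 (60%) were higher and 0 lower. The highest were *Ephx1*, an epoxide hydrolase (18.7 ± 0.967 against 8.51 ± 0.969 FPKM, SD, n = 3), the death receptor genes *Fas* (2.84 ± 0.249 against 1.53 ± 0.0523 FPKM) and *Eda2r* (2.81 ± 0.123 against 1.56 ± 0.281 FPKM). The DNA damage kinase gene *Atm* came next (20.6 ± 0.772 against 13.1 ± 0.349 FPKM). The lowest were *Ddit4*, an mTORC1 inhibitor that Atf4 also induces (8.31 ± 0.525 against 25.7 ± 0.506 FPKM), and *Gadd45a*, a stress sensor (12.3 ± 1.09 against 24.1 ± 2.45 FPKM). They were followed by the ferredoxin reductase gene *Fdxr* (3.43 ± 0.0924 against 4.78 ± 0.135 FPKM) and the polo-like kinase gene *Plk2* (128 ± 3.76 against 142 ± 5.74 FPKM). Their log2 fold changes ran from 0.65 to 1.13 and from -1.62 to -0.15.

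In long-term KO cells 21 of the 45 were higher and 11 lower than in untreated cells, with a median of 0.18 against 0.07 over all genes. These are 46.7% and 24.4% of the list, against 34.3% and 26.6% of all genes. The 6 DNA repair targets were all higher (median 0.69). The largest rises were of *Ephx1* (29.9 ± 1.48 FPKM), the sestrin gene *Sesn1* (22.4 ± 2.15 against 7.76 ± 0.619 FPKM), *Fas* (3.69 ± 0.462 FPKM) and the spindle protein gene *Psrc1* (10.8 ± 1.31 against 4.97 ± 0.205 FPKM). The largest falls were of *Gadd45a* (4.61 ± 1.35 FPKM) and *Plk2* (28.7 ± 0.325 FPKM). Next were *Pmaip1*, which encodes the BH3-only protein Noxa (5.58 ± 0.24 against 16.5 ± 0.631 FPKM), and the antiproliferative gene *Btg2* (18.8 ± 1.65 against 40.3 ± 1.12 FPKM). Against day 5 cells 20 were higher and 12 lower, 44.4% and 26.7% of the list against 32.3% and 27.3% of all genes. *Sesn1*, the adenylate kinase gene *Ak1* (18.6 ± 3.35 against 9.17 ± 0.353 FPKM), the Fanconi anaemia gene *Fancc* (4.93 ± 0.386 against 2.93 ± 0.83 FPKM) and the phosphatase gene *Cdc25c* (34.7 ± 1.88 against 20.5 ± 0.734 FPKM) led the rises. *Plk2*, *Pmaip1* (22.2 ± 0.855 FPKM on day 5), *Eda2r* (0.914 ± 0.0698 FPKM in long-term KO cells) and *Btg2* (51.7 ± 3.62 FPKM on day 5) led the falls.

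The siRNA experiment asked what loss of Dnmt1 did alone and together with 4OHT. With siDnmt1 alone, 4 members fell (*Cdkn1a*, *Bbc3*, *Phlda3* and *Trp53inp1*), none was higher, and 6 were not called, where 3.11% of 10572 genes were called higher and 4.97% lower, 38.5% of the calls being higher (52.3% with median-ratio scaling). Instead of 4 members, 1 was called with median-ratio scaling and 1 with quantile normalization, *Trp53inp1* in both. *Cdkn1a* was at 20 and 20.7 FPKM in siDnmt1 against 47.7 and 47.5 FPKM in siCtrl libraries, so the knockdown libraries were at 0.428 times the control level (log2 fold change -1.22 ± 0.25, limma, adjusted p = 0.0392). *Trp53inp1* was at 1.16 and 0.898 FPKM against 6.27 and 5.14 FPKM, the largest fall among the members (-2.37 ± 0.42, limma, adjusted p = 0.026). *Phlda3* was at 23.3 and 26.5 against 36.9 and 41.6 FPKM (-0.66 ± 0.14, limma, adjusted p = 0.0457) and *Bbc3* at 6.35 and 6.5 against 9.75 and 10.1 FPKM (-0.62 ± 0.14, limma, adjusted p = 0.0459).

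The members that were not called with siDnmt1 had mostly the same order. *Mdm2* was at 31.8 and 28.7 against 48 and 41.4 FPKM, *Ccng1* at 29.8 and 30.1 against 54.8 and 54.3 FPKM, *Bax* at 71.4 and 68.4 against 91 and 90 FPKM, and *Sesn2* at 9.62 and 10.2 against 14.7 and 13 FPKM. In 8 of 10 members both siDnmt1 libraries lay below both siCtrl libraries, as did 44.9% of all genes tested. *Trp53* itself was at 141 and 139 against 126 and 132 FPKM and was not called (log2 fold change 0.12 ± 0.07, limma, adjusted p = 0.365), and *Aen* was at 13.1 and 11.3 against 12.2 and 12 FPKM. The number of calls changed with the libraries in the fit, for reasons that were not tested. It was 8 without the library labelled 4OHT + siCtrl replicate 2, 8 without 4OHT + siCtrl replicate 1, 8 with siDnmt1 and siCtrl libraries alone, and 0 without any 1 of the 4 libraries compared.

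With 4OHT + siCtrl 4 members rose over siCtrl (*Trp53*, *Mdm2*, *Aen* and *Sesn2*), none fell and 6 were not called. Of all genes 7.26% were called higher and 6.51% lower, 52.7% of the calls being higher (40.2% with median-ratio scaling). *Trp53* was at 166 and 167 FPKM against 126 and 132 FPKM (log2 fold change 0.37 ± 0.07, limma, adjusted p = 0.0256), and *Sesn2* was at 23.7 and 19.6 FPKM against 14.7 and 13 FPKM (0.64 ± 0.13, limma, adjusted p = 0.03). *Aen* was at 23.8 and 18.4 FPKM against 12.2 and 12 FPKM (0.79 ± 0.15, limma, adjusted p = 0.0242). For these 3 genes both 4OHT + siCtrl libraries lay above both siCtrl libraries.

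For other members the 2 libraries labelled 4OHT + siCtrl were far apart, with replicate 2 the higher one. In replicates 1 and 2 *Mdm2* was at 65.8 and 107 FPKM, *Cdkn1a* at 57.5 and 103 FPKM, *Ccng1* at 47.7 and 104 FPKM and *Trp53inp1* at 4.51 and 11.4 FPKM. The *Cdkn1a*, *Ccng1* and *Trp53inp1* changes were not called with both libraries (log2 fold changes 0.69, 0.36 and 0.33, limma, adjusted p = 0.115, 0.488 and 0.62). Without replicate 2, 5 members were called, *Cdkn1a* being added at 0.27 (limma, adjusted p = 0.05, under the threshold before rounding), *Mdm2* was at 0.56, and *Ccng1* and *Trp53inp1* were at -0.20 and -0.33, below siCtrl. Without replicate 1, 9 were called, with *Cdkn1a* at 1.12, *Ccng1* at 0.92 and *Trp53inp1* at 0.99. Without either of the siCtrl libraries none was called. The library with the low interferon sum was therefore the one with the high *Cdkn1a*, *Ccng1*, *Mdm2* and *Trp53inp1*, and what set it apart was not tested.

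With siDnmt1 added to 4OHT no member was called (limma, 0 also at an unadjusted p under 0.05), where 1.14% of genes were called higher and 0.927% lower. *Cdkn1a* was at 56.2 and 59 FPKM in 4OHT + siDnmt1 libraries, next to 57.5 and 103 FPKM in 4OHT + siCtrl libraries, and *Trp53inp1* was at 4.69 and 4.01 FPKM next to 4.51 and 11.4 FPKM. Without 4OHT + siCtrl replicate 1 4 members were called lower, *Mdm2* (-0.78), *Cdkn1a* (-0.84), *Ccng1* (-0.89) and *Trp53inp1* (-1.37), and without replicate 2 none was. The effect of siDnmt1 with 4OHT minus that without was 0.80 ± 0.35 for *Cdkn1a*, 0.59 ± 0.20 for *Phlda3* and 1.65 ± 0.60 for *Trp53inp1* (log2). No member was called (limma, adjusted p from 0.437 to 0.957, 2 at an unadjusted p under 0.05), where 0.123% of genes were called higher and 0.0757% lower. Without 4OHT + siCtrl replicate 2 the *Cdkn1a* difference was 1.22 (limma, adjusted p = 0.0127) and the 9 others were not called.

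Of the 52 other pathway genes 49 were tested in this experiment. With siDnmt1, 3 were higher and 7 lower (median -0.20 against -0.09 over all genes). These are 6.12% and 14.3% of the 49, against 3.11% and 4.97% of all genes. The risers were *Gdf15*, a stress-induced cytokine of the TGF-beta family (5.45 ± 0.512 against 0.105 ± 0.0496 FPKM, SD, n = 2), *Plk2* (167 ± 5.91 against 89.4 ± 5.69 FPKM) and *Pmaip1* (37.7 ± 3.69 against 20.8 ± 3.04 FPKM). The lowest were the arrest gene *Rprm* (0.357 ± 0.0293 against 2.58 ± 0.282 FPKM) and *Sesn1* (6.58 ± 0.44 against 19.7 ± 0.289 FPKM). Next were *Psrc1* (4.12 ± 0.297 against 12.2 ± 0.694 FPKM) and *Dcxr*, a xylulose reductase (4.5 ± 0.352 against 12.3 ± 0.0238 FPKM). Known p53 targets thus changed in both directions under siDnmt1. The 6 epithelial markers summed to 55.7 to 56 FPKM in siDnmt1 against 0.677 to 1.05 FPKM in siCtrl libraries. Only 2 of the 6 were at 1 FPKM or more in every siDnmt1 library. Of 3 tested 2 were called higher and 0 lower (66.7% and 0%, against 3.11% and 4.97% of all genes). Of 9 tested fibroblast markers 3 were lower and 1 higher with siDnmt1 (33.3% and 11.1%, against 4.97% and 3.11% of all genes). The part of these lists was not tested.

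With 4OHT + siCtrl 12.2% of the 49 were called higher and 6.12% lower, against 7.26% and 6.51% of all genes. That is 6 higher and 3 lower (median 0.28 against 0.08). They included *Gdf15* (0.661 ± 0.289 FPKM), the BH3 protein gene *Bid* (17.3 ± 1.59 against 7.67 ± 0.673 FPKM), *Atm* (24.3 ± 5.57 against 12.1 ± 2 FPKM) and *Pmaip1* (35 ± 0.601 FPKM) among the risers. Those that fell were the cyclin G2 gene *Ccng2* (5.96 ± 1.45 against 13.3 ± 0.902 FPKM), *Sesn1* (9.19 ± 1.44 FPKM) and *Trp53i13* (10 ± 0.629 against 15.1 ± 1.75 FPKM). With siDnmt1 added to 4OHT only *Gdf15* rose (9.76 ± 0.534 against 0.661 ± 0.289 FPKM) and only *Sesn1* fell (4.51 ± 0.511 FPKM) among the 49. These are 2.04% each way, against 1.14% higher and 0.927% lower of all genes. None of the 49 was called for the interaction.

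The inhibitor experiment gave a second set of short-term 4OHT libraries. On day 6, 5 members rose (*Trp53*, *Mdm2*, *Cdkn1a*, *Bax* and *Aen*), none fell and 5 were not called, where 12.3% of 11309 genes were called higher and 12.7% lower, so the members called higher stood above the background share. *Trp53* was at 188 and 186 FPKM against 120 and 124 FPKM (log2 fold change 0.61 ± 0.13, limma, adjusted p = 0.0132). *Mdm2* was at 56.2 and 56.3 FPKM against 37.4 and 37.2 FPKM (0.59 ± 0.10, limma, adjusted p = 0.00548), and *Cdkn1a* was at 62.2 and 49.4 FPKM against 23.2 and 23 FPKM (1.26 ± 0.16, limma, adjusted p = 0.00224). *Aen* was at 20.3 and 21.3 FPKM against 8.16 and 9.14 FPKM (1.26 ± 0.13, limma, adjusted p = 0.00121), and *Bax* was at 128 and 106 FPKM against 72 and 75.4 FPKM (0.66 ± 0.16, limma, adjusted p = 0.0234).

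In 9 of 10 members both day 6 libraries lay above both untreated ones, as did 34.4% of all genes tested. *Sesn2* was at 12.3 and 17.6 FPKM against 9.24 and 9.67 FPKM and missed the threshold (log2 fold change 0.64 ± 0.20, limma, adjusted p = 0.0503). *Phlda3* was the exception, at 33.8 and 31.3 FPKM against 39.8 and 39.1 FPKM (-0.28 ± 0.10, limma, adjusted p = 0.0907). Of 9 tested Atf4 stress genes 7 were higher and 0 lower on day 6 with a median of 0.93, where on day 5 of the total RNA experiment 7 of 8 were lower. Of all genes, 12.3% were called higher on day 6 and 15.2% lower on day 5. In the siRNA experiment 7 Atf4 stress genes were tested. With siDnmt1 their median was 0.62 and 0 were called, while *Sesn2* was at -0.47 and not called. With 4OHT + siCtrl their median was 0.66, with 1 called higher and 0 lower, where 7.26% of all genes were called higher. The part of Atf4 in these values was not tested. Without untreated replicate 1 the number of members called was 3, and without untreated replicate 2 it was 2.

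Set side by side, the 3 short-term 4OHT contrasts shared few calls. *Mdm2* was called higher in 3 of 3, *Cdkn1a* in 2 and *Aen* in 2, and the 4OHT libraries lay wholly above their controls in all 3 experiments for 4 of 10 members (*Mdm2*, *Cdkn1a*, *Bax* and *Aen*), as for 7.84% of the 9422 genes tested in all 3. *Trp53* and *Sesn2* had 4OHT libraries wholly below their controls in the total RNA experiment and wholly above them in both others. *Phlda3* lay wholly above in the total RNA experiment, wholly below in the inhibitor experiment and overlapped its controls in the siRNA experiment. Of the fibroblast markers tested, 4 of 8 were lower and 1 higher on day 5 (median log2 fold change -0.22), 5 of 9 lower with 4OHT + siCtrl (-1.30) and 5 of 8 lower on day 6 (-1.11). Of all genes, 15.2%, 6.51% and 12.7% were called lower in these comparisons, against 50%, 55.6% and 62.5% of those markers. Their summed level was 1730 to 2120 FPKM on day 5 against 2390 to 2410 FPKM untreated, and 2370 to 2930 FPKM in long-term KO libraries. It was 2350 to 3670 FPKM in 4OHT + siCtrl against 4980 to 5090 FPKM in siCtrl, and 2890 to 3000 FPKM on day 6 against 4000 to 4240 FPKM untreated. Its part in the member values was not tested. The experiments differ in RNA selection, read length, day of harvest and the file's gene models, so time and preparation cannot be told apart, and levels were not compared between them.

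PD0325901, which blocks signalling from MEK to Erk, was tested alone and on top of 4OHT. Alone it raised 2 members, *Cdkn1a* and *Aen*, and 8 were not called, where 5.93% of genes were called higher and 7.77% lower, 43.3% of the calls being higher (53.3% with median-ratio scaling). *Cdkn1a* was at 51.4 and 62.4 FPKM against 23.2 and 23 FPKM (log2 fold change 1.29 ± 0.16, limma, adjusted p = 0.00268), a level like that of 4OHT alone. *Aen* was at 14.5 and 12.4 FPKM against 8.16 and 9.14 FPKM (0.63 ± 0.13, limma, adjusted p = 0.0207). *Trp53* was at 143 and 116 FPKM, overlapping the untreated libraries, and *Mdm2* was at 35.8 and 35.5 FPKM against 37.4 and 37.2 FPKM (-0.07 ± 0.10, 95% interval -0.29 to 0.16). The title line inside the file of PD0325901 replicate 2 names 4OHT as well, but its interferon sum was 47.6 FPKM, next to 42.6 FPKM in replicate 1 and 2590 to 2610 FPKM in 4OHT + PD0325901 libraries, and it was used as labelled. Without that library both calls held, and without replicate 1 or without either untreated library 1 member was called.

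Added to 4OHT, PD0325901 changed no member past the threshold (limma, 0 called, 4 at an unadjusted p under 0.05), where 4.31% of genes were called higher and 2.64% lower, 62% of the calls being higher (51.8% with median-ratio scaling). *Cdkn1a* was at 88.9 and 74.2 FPKM against 62.2 and 49.4 FPKM with 4OHT alone (log2 fold change 0.55 ± 0.16, limma, adjusted p = 0.0796). The groups did not overlap. *Phlda3* was at 46.7 and 40.3 FPKM against 33.8 and 31.3 FPKM (0.42 ± 0.10, limma, adjusted p = 0.0573), and *Aen* was at 15.2 and 16.7 FPKM against 20.3 and 21.3 FPKM (-0.38 ± 0.13, limma, adjusted p = 0.129). Without 4OHT + PD0325901 replicate 2, *Mdm2* was called lower (-0.44, limma, adjusted p = 0.0443) and *Phlda3* higher (0.52, limma, adjusted p = 0.0498). *Aen* libraries thus lay above the controls with PD0325901 alone and below them when it was added to 4OHT. The difference between these effects was -1.01 ± 0.18 for *Aen* (limma, adjusted p = 0.0649), -0.74 ± 0.22 for *Cdkn1a* (limma, adjusted p = 0.179) and 0.48 ± 0.15 for *Phlda3* (limma, adjusted p = 0.187). No member was called (3 at an unadjusted p under 0.05), where 0.531% of genes were called higher and 0.212% lower, 71.4% of the calls being higher (56.1% with median-ratio scaling).

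With TSA *Cdkn1a* rose, 6 members fell (*Trp53*, *Mdm2*, *Ccng1*, *Bbc3*, *Aen* and *Phlda3*) and 3 were not called, where 31.5% of genes were called higher and 24.3% lower, so the members called lower stood above the background share. *Trp53* was at 33.8 and 28 FPKM against 120 and 124 FPKM, 0.252 times the untreated level (log2 fold change -1.99 ± 0.13, limma, adjusted p = 2.14e-05). *Cdkn1a* was at 63.3 and 71.9 FPKM against 23.2 and 23 FPKM, 2.93-fold higher (1.54 ± 0.16, limma, adjusted p = 0.000143), so its transcript was high in the libraries where the *Trp53* transcript was lowest. *Cdkn1a* is a textbook target of histone deacetylase inhibitors also in cells without p53. The p53 protein was not measured, and the part of p53 in the *Cdkn1a* rise with TSA was not tested.

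Of the members that fell with TSA, *Phlda3* was at 13.9 and 14.6 FPKM against 39.8 and 39.1 FPKM (log2 fold change -1.47 ± 0.10, limma, adjusted p = 3.31e-05). *Ccng1* was at 25.5 and 25.4 FPKM against 45.7 and 43.5 FPKM (-0.81 ± 0.10, limma, adjusted p = 0.000429), and *Mdm2* was at 25.3 and 25.4 FPKM against 37.4 and 37.2 FPKM (-0.55 ± 0.10, limma, adjusted p = 0.00178). *Bbc3* was at 3.07 and 4.18 FPKM against 6.02 and 6.38 FPKM (-0.77 ± 0.19, limma, adjusted p = 0.00956) and *Aen* at 6.1 and 6.31 FPKM against 8.16 and 9.14 FPKM (-0.47 ± 0.13, limma, adjusted p = 0.0166). *Bax* missed the threshold at 63.6 and 47.5 FPKM against 72 and 75.4 FPKM (-0.42 ± 0.16, limma, adjusted p = 0.0555). Epithelial markers summed to 34.3 to 40.9 FPKM with TSA against 1.28 to 1.39 FPKM untreated, and haematopoietic markers to 61.2 to 67.4 against 4.42 to 5.03 FPKM. Only 1 of the 8 haematopoietic markers was at 1 FPKM or more in every TSA library, and 3 were at 0 in every one. Of the 6 epithelial markers 3 were at 1 FPKM or more in every TSA library. Of 18 tested proliferation genes 16 were lower with TSA (88.9% against 24.3% of all genes, median -0.86 against 0.10). *Cdkn1a* was also called higher on day 5, in long-term KO cells, on day 6 and with PD0325901 alone. There 5.26%, 15.8%, 0% and 27.8% of the tested proliferation genes were lower, against 15.2%, 26.6%, 12.7% and 7.77% of all genes. Higher were 15.8%, 47.4%, 0% and 0% of them, against 16%, 34.3%, 12.3% and 5.93% of all genes. The part of these lists in the member values was not tested.

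**Figure D3:**
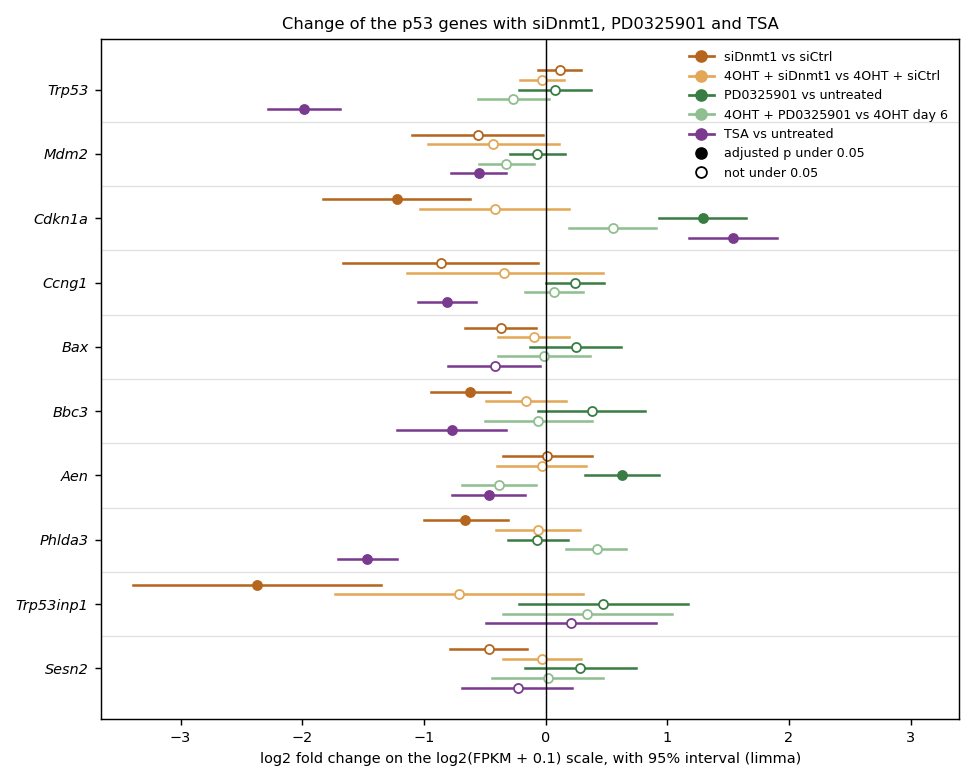
Log2 fold change (x axis, 95% interval as bars) of the 10 genes with siDnmt1, PD0325901 and TSA; filled circles have an adjusted p under 0.05. *Trp53* at -1.99 and *Cdkn1a* at 1.54 with TSA lie on opposite sides of 0, *Cdkn1a* is at -1.22 with siDnmt1, and no circle is filled where siDnmt1 or PD0325901 was added to 4OHT.

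Of the 52 other pathway genes 50 were tested in the inhibitor experiment. On day 6 after 4OHT 7 were higher and 7 lower (median -0.01 against 0.00). These are 14% and 14% of the 50, near the 12.3% and 12.7% of all genes. The highest were the desmosomal p53 target *Perp* (1.04 ± 0.658 against 0.0209 ± 0.0295 FPKM, SD, n = 2) and *Trp53i11* (1.03 ± 0.182 against 0.0749 ± 0.0162 FPKM). Next were *Gdf15* (0.772 ± 0.175 against 0.0444 ± 0.0629 FPKM) and *Bid* (18.4 ± 1.87 against 7.54 ± 0.793 FPKM). The lowest were *Btg2* (8.47 ± 1.97 against 41.4 ± 0.216 FPKM) and *Ccng2* (6.07 ± 2.83 against 18.1 ± 0.323 FPKM), followed by *Plk2* (101 ± 4.78 against 206 ± 2.37 FPKM) and *Cdkn2a*, the locus of the p53 activator Arf and of p16 (539 ± 150 against 1010 ± 69.4 FPKM). *Cdkn2a* was at 302 FPKM or more in all 27 libraries. With PD0325901 alone 2 of the 50 were higher, *Gdf15* (0.833 ± 0.343 FPKM) and *Ei24* (54.7 ± 2.43 against 38.4 ± 1.53 FPKM). The 3 that were lower were *Plk2* (43.5 ± 8.76 FPKM), *Fdxr* (3.01 ± 0.727 against 5.94 ± 0.261 FPKM) and the checkpoint kinase gene *Chek2* (6.43 ± 0.396 against 11.5 ± 1.18 FPKM). Higher and lower calls were 4% and 6% of the 50, against 5.93% and 7.77% of all genes.

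With PD0325901 added to 4OHT 3 of the 50 were higher and none lower. That is 6% and 0% of the list, against 4.31% and 2.64% of all genes. The 3 were *Gdf15* (6.06 ± 0.553 against 0.772 ± 0.175 FPKM), *Ephx1* (33.2 ± 0.758 against 18.3 ± 2.14 FPKM) and *Zfp385a* (19.8 ± 0.905 against 14.6 ± 0.547 FPKM). No gene of the list was called for the interaction. *Gdf15* rose in each of the 6 siRNA and inhibitor comparisons other than TSA. With TSA 18 of the 50 were higher and 10 lower (median 0.25 against 0.10), 36% and 20% of the list against 31.5% and 24.3% of all genes. The DNA repair gene *Ddb2* was listed at 0 in both untreated libraries and at 5.95 and 5.24 FPKM with TSA, and *Fancc* was listed at 0 with TSA and at 2.6 and 2.95 FPKM untreated. These zeros are not rows marked as failed, which were left out. In TSA replicates 1 and 2, 25 and 32 genes were at 0 with a median of at least 10 FPKM in the experiment's other libraries. In untreated replicates 1 and 2 these were 16 and 12 genes, so a listed 0 need not mean absence. The other leading genes were *Trp53i11* (6.66 ± 1.25 FPKM), *Perp* (3.89 ± 0.0031 FPKM) and *Dcxr* (31.1 ± 8.06 against 9.3 ± 3.43 FPKM) among the risers. Those that fell included *Psrc1* (2.07 ± 0.456 against 8.75 ± 0.768 FPKM), the RNA-binding protein gene *Zmat3* (1.53 ± 0.114 against 4.54 ± 0.124 FPKM) and the acetyltransferase gene *Ep300* (10.1 ± 0.662 against 25.1 ± 1.3 FPKM).

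**Figure D4:**
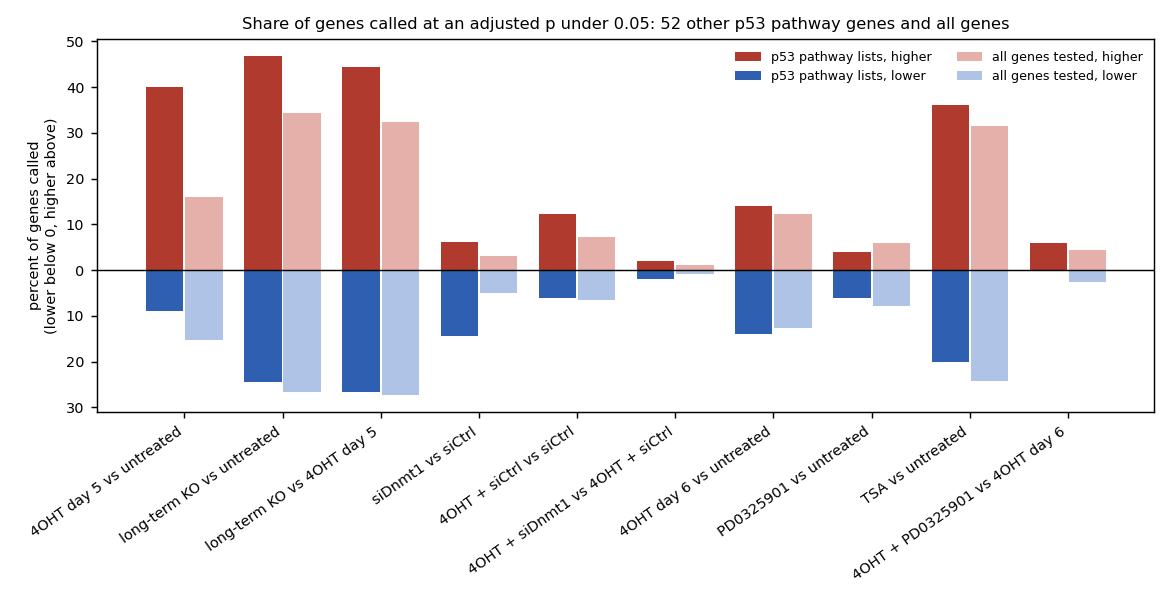
Percent of genes called higher (above 0) and lower (below 0) at an adjusted p under 0.05 (y axis) in each comparison (x axis), for the 52 other p53 pathway genes (dark bars, over those tested) and for all genes tested (light bars). On day 5 after 4OHT 40% of the pathway genes were called higher against 16% of all genes. On day 6 of the inhibitor experiment the shares were 14% and 12.3%. The lists were chosen with earlier results of these data known.

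Over the 27 libraries, each centred on the mean of its experiment, the members did not move as one. The correlation of log2 levels with *Trp53* ran from -0.08 (*Cdkn1a*) to 0.77 (*Aen*), with *Mdm2* at 0.62 and *Bbc3* at 0.73. With *Cdkn1a* it was 0.74 for *Trp53inp1*, 0.56 for *Ccng1* and 0.54 for *Mdm2*. Of 9422 genes the 3 most like *Trp53* were *Tacc2* (0.98), *Ccdc43* (0.97) and *Nob1* (0.97), and the 3 most like *Cdkn1a* were *Atg14* (0.84), *Klhl21* (0.84) and *Fbxo34* (0.82). These are descriptions over libraries that share treatments and include the TSA libraries, which are far from the others of their experiment in *Trp53*. The long-term KO values of *Bax* and *Aen* from rows shared with *Ftl1* and *Isg20* were kept in these correlations.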

How the data were processed

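RNA-seq of *Setdb1* cKO iMEFs was measured in 27 libraries of 3 experiments. Per the labels and the study's methods, the authors used TopHat2 2.0.12 against mm9, placing each read once, and computed gene FPKM with Cufflinks and RefSeq genes; the deposited files hold FPKM with its interval, replicates apart, and no counts, so read depth is unknown. Rows that Cufflinks marked as failed were left out. 2 tables of the whole series hold the authors' own Cuffdiff comparisons and were not used. Total RNA rows were matched to genes by position (at least 95% of the gene covered); genes that share a row share its value.

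Each experiment was fitted apart, with all its groups, by limma 3.58.1 (R 4.3.3) on log2(FPKM + 0.1), for genes reaching 1 FPKM in at least the number of libraries of the experiment's smallest group, with a mean-variance trend and Benjamini-Hochberg adjustment over all genes tested. A gene was called at an adjusted p under 0.05. Fold changes on this scale understate changes of low genes. On simulated data with known changes (2-fold for 100 genes, 4-fold for 100 genes) the fit found 81 and 87 of them for 4OHT day 5 against untreated, 43 and 77 for siDnmt1 against siCtrl, and 47 and 82 for 4OHT day 6 against untreated, so many 2-fold changes are missed with 2 libraries per group.

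The text names all 10 members in every comparison, up to 4 highest and 4 lowest called genes of the p53 pathway lists, *Setdb1* and *Dnmt1*, genes sharing a member's row, and the 3 genes most like *Trp53* and *Cdkn1a*. Members and lists were chosen with earlier results of these data known. The element search used GENCODE vM1 start sites and the NCBIM37 (mm9) genome. Alternatives were other pseudocounts, filters and scalings, a fold limit, only the groups compared, a replicate block, other row matches and leaving out each library.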

Additional observations from a re-analysis of the deposited data

Results flagged for a closer look

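3 genes had 4OHT libraries wholly on opposite sides of their controls in different experiments. *Trp53* had a log2 fold change of -0.13 on day 5 of the total RNA experiment, 0.37 in 4OHT + siCtrl and 0.61 on day 6 of the inhibitor experiment. *Sesn2* was at -0.99 on day 5 and at 0.64 in 4OHT + siCtrl and at 0.64 on day 6. *Phlda3* was at 0.19 on day 5 and at -0.28 on day 6. The difference between the experiments was not tested, because they were prepared and normalized apart. No group has 4 or more libraries, so single libraries were not tested against their group.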

How the results depend on the processing

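The number of members called (6 on day 5, 8 and 8 in long-term KO cells, 4 with siDnmt1, 4 with 4OHT + siCtrl, 0 with siDnmt1 added to 4OHT, 5 on day 6, 2 with PD0325901, 7 with TSA, 0 with PD0325901 added to 4OHT) was recomputed under each alternative, and the causes of changes were not tested. With a fold change of at least 2 it was 1 on day 5, 2 and 1 for long-term KO against untreated and day 5, 2 with siDnmt1, 0 with 4OHT + siCtrl, 2 on day 6, 1 with PD0325901 and 3 with TSA. With siDnmt1 it was 2 without a filter, 1 with median-ratio scaling, 1 with quantile normalization, 1 with a replicate block and 8 with only the 2 groups compared. With 4OHT + siCtrl it was 2 with median-ratio scaling and 0 with only the 2 groups compared, and with PD0325901 it was 1 with only the 2 groups compared. Leaving out 1 library gave 5 to 7 on day 5, 8 to 9 and 8 in long-term KO cells, 0 to 8 with siDnmt1, 0 to 9 with 4OHT + siCtrl, 0 to 4 with siDnmt1 added to 4OHT, 0 to 1 for its interaction, 2 to 4 on day 6, 1 to 2 with PD0325901, 5 to 7 with TSA and 0 to 2 with PD0325901 added to 4OHT. The runs that left out a library outside the comparison, and those of the interactions, were chosen after seeing the data. Of 680 alternatives of the 44 single-gene calls, 578 kept the call, 102 lost it and 0 turned its sign. Same-numbered libraries correlated over 0.1 in 1 of 9, 0 of 12 and 6 of 20 pairs, the 6 being those among PD0325901, 4OHT day 6 and 4OHT + PD0325901 (0.21 to 0.26). With 2 libraries per group both replicates of a pair of groups give the same value by construction. The counts over 12 and 20 thus hold each value 2 times. No source says what a replicate number shares, so the replicate numbers were not taken as pairs. The replicate block gave 5, 8 and 8 in total RNA, 3 with 4OHT + siCtrl, 6 on day 6, 2 with PD0325901, 8 with TSA and 0 with PD0325901 added to 4OHT (899 genes against 785) and for its interaction (71 against 84). Under the block 3199 genes were called on day 5, 522 with siDnmt1 and 967 with 4OHT + siCtrl. Read depth is unknown, and with 2 libraries per group many 2-fold changes are missed.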
